A study of Mus musculus with 28 samples.

Results

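Cranial neural crest cells of the mouse line O9-1 that had been driven towards cartilage were compared with cells of the same line driven towards bone, both at 0.5% O2 (hypoxia). The comparison uses 6 of the 28 RNA sequencing libraries of the study, 3 from hypoxic chondrocyte cultures and 3 from hypoxic osteoblast cultures, chosen by their labels and not by any measured value. The remaining libraries are of proliferating and smooth muscle cultures, and of the same culture types at 21% O2 (normoxia). The hypoxic proliferating cultures, whose levels are given for reference, were kept at 0.5% O2 in STO-conditioned DMEM with 15% FCS, bFGF and LIF, a medium that differs from both arms. Chondrocyte cultures were first kept for 3 days in osteogenic medium and then for 7 days as micromasses, dense drops of cells, on plastic coated with matrigel. Their chondrogenic medium was alpha-MEM with 5% FCS, an insulin, transferrin and selenium supplement, 0.1 µM dexamethasone, TGF-beta3 at 10 ng/ml and BMP-2 at 50 ng/ml. Osteoblast cultures spent all 10 days in alpha-MEM with 10% FCS, 10 mM beta-glycerophosphate, 0.1 µM dexamethasone and BMP-2 at 100 ng/ml. Both arms thus shared the basal medium, dexamethasone, BMP-2 and a start in osteogenic medium, and differed in serum, the insulin, transferrin and selenium supplement, BMP-2 dose, TGF-beta3, phosphate donor, coating and culture format, whose contributions cannot be told apart. All libraries come from 1 cell line, and the labels do not say whether replicates were separate cultures, so p-values measure the spread between these samples, which may be technical. In bulk RNA, fewer cells of a type and less RNA per cell cannot be told apart.

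Cranial neural crest cells form both the cartilage and the bone of the face. A chondrocyte lays down a matrix of type II collagen and the proteoglycan aggrecan under the transcription factor SOX9, while an osteoblast lays down type I collagen that is later mineralised, under RUNX2 and SP7 (osterix). Chondrocytes that become hypertrophic switch on type X collagen and several osteoblast genes, and the growth plate is itself a tissue poor in oxygen, in which the hypoxia-inducible factors drive glycolysis and collagen modification.

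Total counts were 27811612 to 34444072 in the chondrocyte and 25969632 to 29675404 in the osteoblast libraries. The 10 most abundant genes took 15.6 to 16.5% of the counts in the chondrocyte and 8.15 to 8.63% in the osteoblast libraries, and mitochondrial transcripts took 0.502 to 0.670% and 0.573 to 0.720%. Levels are given as CPM (counts relative to the TMM-scaled library size), and differences as log2 fold changes, chondrocyte minus osteoblast, with their standard error (SE), from edgeR's quasi-likelihood test. A gene was called at a Benjamini-Hochberg adjusted p under 0.05. Principal components were taken only from the genes that varied most across these 6 libraries, a choice that favours genes separating the groups. The first component carried 97.5% of the variance of those genes. On it, chondrocyte replicate 1 scored 31.1 and replicates 2 and 3 scored 39.2 and 39.6. The osteoblast libraries lay between -36.7 and -36.6. At 21% O2, osteoblast replicate 4 stood apart from the other 3 of its group in 11 of 20 marker genes. It held 791 CPM of Col2a1, for example, against 36.3 to 44.6 CPM in the others, so the counts and interaction terms that use the normoxic libraries are given with and without it where they are described.

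The cultures differed across much of the transcriptome. Of 14116 genes tested, 8137 (57.6%) were called, 4038 (28.6%) higher and 4099 (29.0%) lower in the chondrocyte cultures, and 3118 (22.1%) of them differed at least 2-fold. A difference of 16-fold or more was called for 94 genes higher and 168 genes lower. The median log2 fold change over all genes tested was 0.0077. With scaling by library size alone this median was -0.102 and 40.8% of the calls were higher, against 49.6% here, so small differences in either direction carry that shift. The shares above are the background against which the counts of each gene list below are to be read.

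The cartilage matrix genes were mostly higher in the chondrocyte cultures, but by amounts that differed widely. Of 21 genes on the list, 11 could be tested. Of these 7 were higher, 3 lower and 1 was not called, with a median log2 fold change of 1.83. Col2a1, which encodes type II collagen, was at 198, 261 and 379.8 CPM in chondrocyte replicates 1 to 3 and at 71.4, 72.3 and 73.5 CPM in osteoblast replicates 1 to 3 (log2 fold change 1.96, SE 0.22, adjusted p = 0.000138). Every chondrocyte library lay above every osteoblast library, and chondrocyte replicate 1 was the lowest of its group. Acan, which encodes aggrecan, was at 465, 696 and 743 CPM against 339, 377 and 339.7 CPM, again without overlap, a difference of 1.81-fold (log2 fold change 0.86, SE 0.15, adjusted p = 0.000603). Hypoxic proliferating cultures held 0.09996, 0 and 0 CPM of Col2a1 and 67.9, 61.6 and 62.7 CPM of Acan, so both differentiated groups lay above them. In a fit to all 28 libraries, which pools the spread of all 8 groups, neither Col2a1 (adjusted p = 0.0672) nor Acan (adjusted p = 0.0673) was called.

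Other structural genes of cartilage split in both directions. Col11a1, a collagen of the type II fibril, was at 4917, 4452 and 4558 CPM in the chondrocyte and 900.3, 894 and 922 CPM in the osteoblast libraries (log2 fold change 2.36, SE 0.089, adjusted p = 4.56e-10). Hapln1, the link protein that ties aggrecan to hyaluronan, was at 50.7, 62.8 and 99.9 CPM against 12.6, 8.31 and 8.44 CPM (7.33-fold higher). Prg4, the joint lubricant lubricin, was at 8.45, 3.86 and 3.09 CPM against 0.276, 0.701 and 0.467 CPM. In none of these 3 genes did the groups overlap, and Col11a2 and Comp were higher as well (log2 fold changes 2.13 and 1.83). The genes that were lower were all at low levels. Col9a2, a chain of type IX collagen, was at 0.592, 0.803 and 1.34 CPM in the chondrocyte and 8.41, 4.52 and 5.24 CPM in the osteoblast libraries, and the matrilin gene Matn4 at 0.526, 0.161 and 0.335 against 6.95, 3.96 and 7.04 CPM (log2 fold changes -2.71 and -4.08). Col9a1 was at 0.197, 0.0402 and 0.201 against 4.54, 1.09 and 0.574 CPM (log2 fold change -3.72, and -2.44 without osteoblast replicate 1, where it was still called). Its call was lost in the fit to all 28 libraries (adjusted p = 0.209). Cilp2 was not called, and several markers of mature cartilage, Matn1, Chad, Ucma and Snorc, were at 0 in all 6 libraries.

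Sox9 itself was not called. It was at 196, 137 and 158 CPM in the chondrocyte and 185, 194 and 219.8 CPM in the osteoblast libraries, with overlap (log2 fold change -0.28, SE 0.12, adjusted p = 0.0655). Without chondrocyte replicate 1, which was the highest of its group, Sox9 was called lower (log2 fold change -0.42, adjusted p = 0.00278). It was also called with no filter on low counts and when scaled by total counts alone, so in 3 of 15 alternatives in all. Its partner Sox5, which helps SOX9 to activate cartilage genes, was 4.23-fold lower, at 16.2, 12.01 and 10.7 against 55.5, 54.9 and 55.3 CPM (log2 fold change -2.08, SE 0.14, adjusted p = 6.01e-08), and Sox6 was at 0, 0.161 and 0.302 against 0.237, 0.245 and 0.1795 CPM and not tested. Of 7 chondrogenic factors tested, 4 were higher, 2 lower and 1 was not called (median 0.57). Nkx3-2, a repressor that keeps chondrocytes immature, was at 1.32, 3.41 and 1.61 CPM against 0, 0 and 0.0359 CPM. Foxc2 and Trps1 were higher and Foxc1 lower (log2 fold changes 1.02, 0.76 and -1.82).

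Of 9 genes of growth plate hypertrophy 7 could be tested, and 4 of them were higher and 3 lower (median 0.73). Col10a1, the collagen that defines hypertrophic cartilage, was at 86.4, 111 and 165 CPM in the chondrocyte and 33.01, 35.2 and 34.8 CPM in the osteoblast libraries, 3.53-fold higher (log2 fold change 1.82, SE 0.22, adjusted p = 0.000182). Pth1r, the receptor for parathyroid hormone and its related peptide, was at 106, 167 and 177 against 16.6, 15.8 and 12.8 CPM (10-fold higher), while Pthlh, which encodes that peptide, was lower at 3.12, 4.62 and 4.46 against 16.6, 17.99 and 18.7 CPM. Mmp13, the collagenase of late hypertrophic chondrocytes and of osteoblasts, went the opposite way to Col10a1. It was at 1.51, 2.05 and 1.04 CPM in the chondrocyte and 101, 89.4 and 108 CPM in the osteoblast libraries, 65.5-fold lower (log2 fold change -6.03, SE 0.18, adjusted p = 2.27e-10). Ihh, the signal of prehypertrophic cells, was at 0.2301, 0.281 and 0.335 CPM in the chondrocyte libraries and at 0 in the osteoblast libraries, too low to be tested.

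The osteoblast regulators were split between the arms. Sp7 was at 170.1, 287 and 263 CPM in the chondrocyte and 98.8, 98.9 and 98.2 CPM in the osteoblast libraries, so that all 3 chondrocyte libraries lay above (2.44-fold, log2 fold change 1.29, SE 0.17, adjusted p = 0.000117). Its call was lost in the fit to all 28 libraries (adjusted p = 0.194). Runx2 was at 91.6, 84.3 and 77.7 CPM against 127, 149 and 153 CPM, 1.69-fold lower in the chondrocyte cultures without overlap (log2 fold change -0.75, SE 0.097, adjusted p = 2.13e-05). Cbfb, the partner subunit of the RUNX proteins, was higher at 218, 303 and 292 against 86.6, 81.1 and 72.7 CPM (log2 fold change 1.76, SE 0.13, adjusted p = 1.85e-07). Over the list, 3 of 9 tested were higher, 2 lower and 4 not called, with a median of 0.11. The count of lower calls was 1 when any library other than chondrocyte replicate 3 was left out. Dlx3, Dlx5, Dlx6 and Atf4 were not called.

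Bone matrix genes were divided as well. Ibsp, bone sialoprotein, was at 466, 693 and 828 CPM in the chondrocyte and 77.2, 71.2 and 64.6 CPM in the osteoblast libraries, 9.37-fold higher in the chondrocyte cultures (log2 fold change 3.23, SE 0.203, adjusted p = 1.45e-06). Spp1, osteopontin, was at 1079, 1351 and 1142 against 5002, 4676 and 4687 CPM, 4.01-fold lower (log2 fold change -2.002, SE 0.105, adjusted p = 6.64e-09). In neither gene did the groups overlap. Omd, osteomodulin, was at 23.9, 26.8 and 22.1 against 299, 258 and 329 CPM and thus 12.1-fold lower, and Mepe, a phosphoglycoprotein of osteocytes, was at 0.164, 0.0402 and 0.168 against 4.19, 3.23 and 3.05 CPM (log2 fold changes -3.602, SE 0.12 and -4.71, SE 0.43). Several genes that handle phosphate and pyrophosphate were higher. Slc20a1, a phosphate importer, was at 112, 121 and 109.7 CPM against 17.1, 12.2 and 18.7 CPM, Enpp1, which makes pyrophosphate, at 13.1, 18.96 and 13.8 against 2.57, 3.296 and 3.99 CPM, and Ank, which exports it, at 164, 217 and 198 against 93.6, 93.2 and 84.5 CPM. Slc20a2, another phosphate importer, was lower by a log2 fold change of -0.304.

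The alkaline phosphatase gene Alpl, an early marker of mineralising cells, overlapped between the arms at 67.5, 90.3 and 116 CPM and 69.6, 73.98 and 84.8 CPM (log2 fold change 0.27, SE 0.18, adjusted p = 0.226). Without chondrocyte replicate 1 it was called higher (log2 fold change 0.45, adjusted p = 0.00518). Dmp1 of osteocytes was at 5.79, 9.84 and 12.2 against 7.15, 13.9 and 8.87 CPM and was not called (adjusted p = 0.792). Bglap, osteocalcin, the marker of the mature osteoblast, was at 0, 0 and 0.0335 CPM in the chondrocyte and 0.316, 0.316 and 0.503 CPM in the osteoblast libraries, near 0 in both, and its reads may be shared with its near-identical copies Bglap2 and Bglap3. Sost and Fgf23 were at 0. Of 20 genes on the list 15 could be tested, of which 5 were higher, 7 lower and 3 not called. Without chondrocyte replicate 1, 6 were higher and 5 lower, and the median of -0.11 turned to 0.15, and without osteoblast replicate 2, 5 were higher and 4 lower. By these markers the osteoblast cultures held Runx2, Spp1, Omd and Mmp13 above the chondrocyte cultures but less Ibsp, Sp7 and type I collagen, and close to no Bglap.

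**Figure D1:**
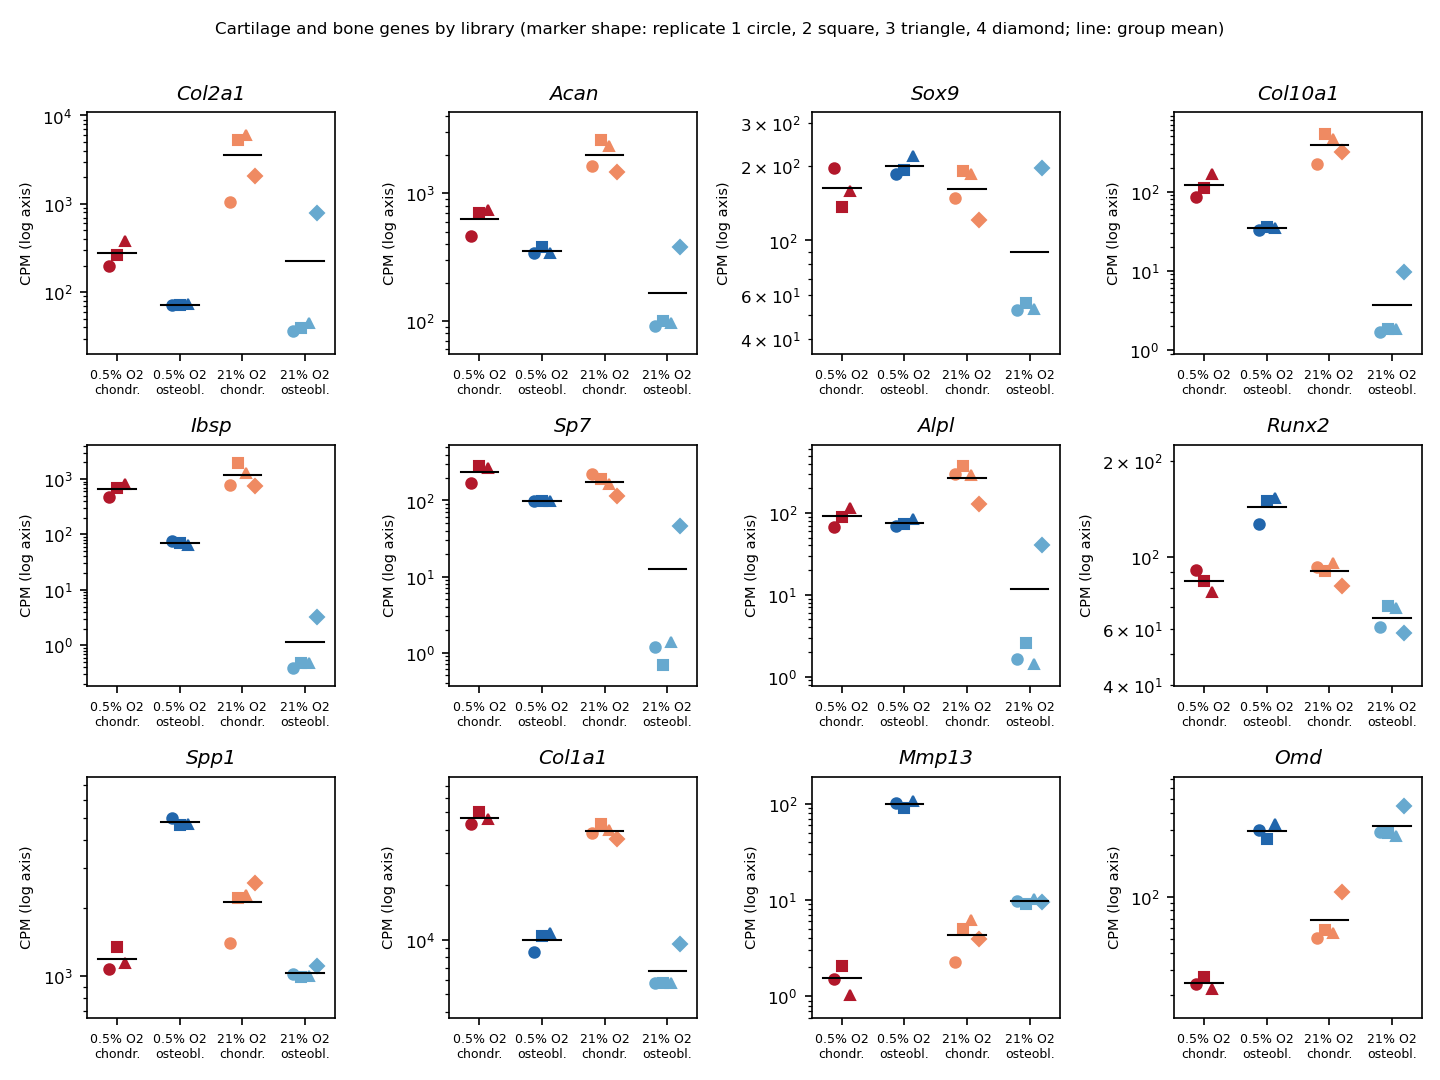
Levels of 12 cartilage and bone genes in single libraries, in CPM on a log axis, for chondrocyte and osteoblast cultures at 0.5% and 21% O2 (points: libraries, marker shape: replicate number, line: group mean). At 0.5% O2 Ibsp and Col1a1 lay higher and Spp1, Mmp13 and Omd lower in the chondrocyte libraries, Sox9 and Alpl overlapped, and at 21% O2 osteoblast replicate 4 (diamond) lay apart from the other 3, for example in Col2a1, Acan, Sp7 and Alpl.

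Fibrillar collagen took a larger share of the RNA in the chondrocyte cultures. Col1a1, the main chain of type I collagen (chr11:94936224-94953042), was at 43410, 50260 and 46180 CPM in the chondrocyte and 8574, 10470 and 10820 CPM in the osteoblast libraries (4.7-fold, log2 fold change 2.23, SE 0.12, adjusted p = 7.33e-09). Col1a2 was at 38710, 44560 and 40140 against 14350, 15960 and 15710 CPM (log2 fold change 1.43, SE 0.102, adjusted p = 1.09e-07). Col5a1, which nucleates type I fibrils, was at 10020, 9968 and 10380 against 1597, 1726 and 1469 CPM (log2 fold change 2.67, SE 0.098, adjusted p = 3.85e-10), and Col5a3 at 82.4, 116 and 136 against 16.6, 16.9 and 16.2 CPM. In all of these genes every chondrocyte library lay higher. Per kb of exon, the chondrocyte cultures held 7103 CPM of Col1a1, 84.96 CPM of Acan, 38.6 CPM of Col10a1 and 30.3 CPM of Col2a1, so that type I collagen remained far above type II collagen in the cultures labelled chondrocyte.

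Most enzymes that modify and cross-link collagen were higher with the chains. Of 24 genes tested for fibrillar collagens and their processing, 18 were higher, 3 lower and 3 not called (median 1.05). The count of lower calls was 1 without chondrocyte replicate 2, chondrocyte replicate 3 or osteoblast replicate 2. Their summed level was 126000 to 138800 CPM in the chondrocyte and 42260 to 45890 CPM in the osteoblast libraries. Plod2, the lysyl hydroxylase of the collagen telopeptide, was at 1261, 1482 and 1430 CPM against 237, 209 and 200.2 CPM, 6.49-fold higher (log2 fold change 2.697, SE 0.103, adjusted p = 4.73e-10). Serpinh1, the collagen chaperone HSP47, was at 2651, 3253 and 3187 against 981, 983 and 1063 CPM, and P3h1 and Bmp1, a prolyl 3-hydroxylase and the procollagen C-proteinase, were higher by log2 fold changes of 2.01 and 1.92. Of the lysyl oxidases that form cross-links, Loxl2 was higher at 726, 735 and 761 against 441, 378 and 364 CPM, Loxl4 was lower (log2 fold change -0.28) and Loxl3 was not called.

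Small leucine-rich proteoglycans, which bind collagen fibrils and set their width, were sorted sharply between the arms. Of 8 genes 7 were tested, and 2 were higher (1 without osteoblast replicate 3), 4 lower and 1 was not called (median -2.702). Fmod, fibromodulin, was at 2213, 2735 and 2407 CPM in the chondrocyte and 304, 320 and 340.3 CPM in the osteoblast libraries (7.65-fold higher, log2 fold change 2.94, SE 0.11, adjusted p = 3.24e-10). Ogn, osteoglycin, was at 154, 235 and 189.6 CPM against 3551, 3194 and 3303 CPM (17.3-fold lower, log2 fold change -4.11, SE 0.15, adjusted p = 8.17e-10), and Aspn, asporin, at 399.6, 454 and 357 against 2838, 2388 and 2683 CPM (6.51-fold lower). Lum, lumican, was at 0.164, 0.121 and 0.369 against 2.45, 3.23 and 4.595 CPM. Decorin (Dcn) was at 1.28, 2.21 and 3.15 against 32.7, 35.2 and 32.5 CPM, lower as well, and biglycan (Bgn), at a mean of 1049 CPM per kb of exon the most abundant member in the chondrocyte cultures, was not called at 6741, 6193 and 6254 against 5766, 5765 and 6600 CPM.

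Basement membrane genes had no member called higher. Of 22 genes 19 were tested, and 11 were lower and 8 not called (median -0.45). The chondrocyte cultures were grown on matrigel, which is itself a basement membrane extract. Col15a1 was at 67.7, 85.7 and 72.4 CPM against 385, 429 and 376 CPM (log2 fold change -2.39, SE 0.11, adjusted p = 1.58e-09), and Lama3, Col4a6 and Nid1 were lower by log2 fold changes of -2.59, -2.28 and -0.796. The main chains of type IV collagen, Col4a1 and Col4a2, were not called.

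Of 21 matricellular and elastic fibre genes 19 were tested, and 11 were higher, 5 lower and 3 not called (median 0.48). Fn1, fibronectin, was at 14360, 15840 and 15010 CPM against 5818, 6827 and 6980 CPM, and Fbln2, fibulin-2, at 3520, 3793 and 3624 against 990.1, 1140 and 1018 CPM (3.49-fold higher). Sparc, osteonectin, a collagen-binding protein of bone, was at 8916, 10240 and 9627 against 3107, 3109 and 3291 CPM (log2 fold change 1.604, SE 0.094, adjusted p = 1.85e-08). Tnc and Postn, tenascin C and periostin, were higher too (log2 fold changes 1.63 and 0.76), while Tnxb, tenascin X, was at 0.329, 0 and 0 CPM against 5.84, 8.13 and 5.56 CPM and lower. In none of these genes did the libraries of both groups overlap.

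Matrix proteases and their inhibitors were called in both directions, with 5 higher, 8 lower and 4 not called among 17 tested of 20, and their summed level was 6899 to 7755 CPM in the chondrocyte and 14320 to 15410 CPM in the osteoblast libraries. Adamts1, a protease that cleaves versican and aggrecan, was at 1514, 833 and 799 CPM against 6623, 6759 and 6015 CPM, 6.15-fold lower (log2 fold change -2.62, SE 0.25, adjusted p = 6.55e-05), with chondrocyte replicate 1 the highest of its group. Timp4, a metalloproteinase inhibitor, was at 0 in the chondrocyte libraries and at 6.32, 3.58 and 4.63 CPM in the osteoblast libraries. Against a floor of 3 counts over the chondrocyte group it was at least 137-fold lower. Timp2 and Timp3 were lower (log2 fold changes -1.1 and -1.12) and Timp1 was higher, at 187, 205 and 191 against 45.2, 51.5 and 52.5 CPM. The aggrecanase genes Adamts4 and Adamts5 were higher by log2 fold changes of 1.85 and 1.34, and Adamts12 by 2.44.

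**Figure D2:**
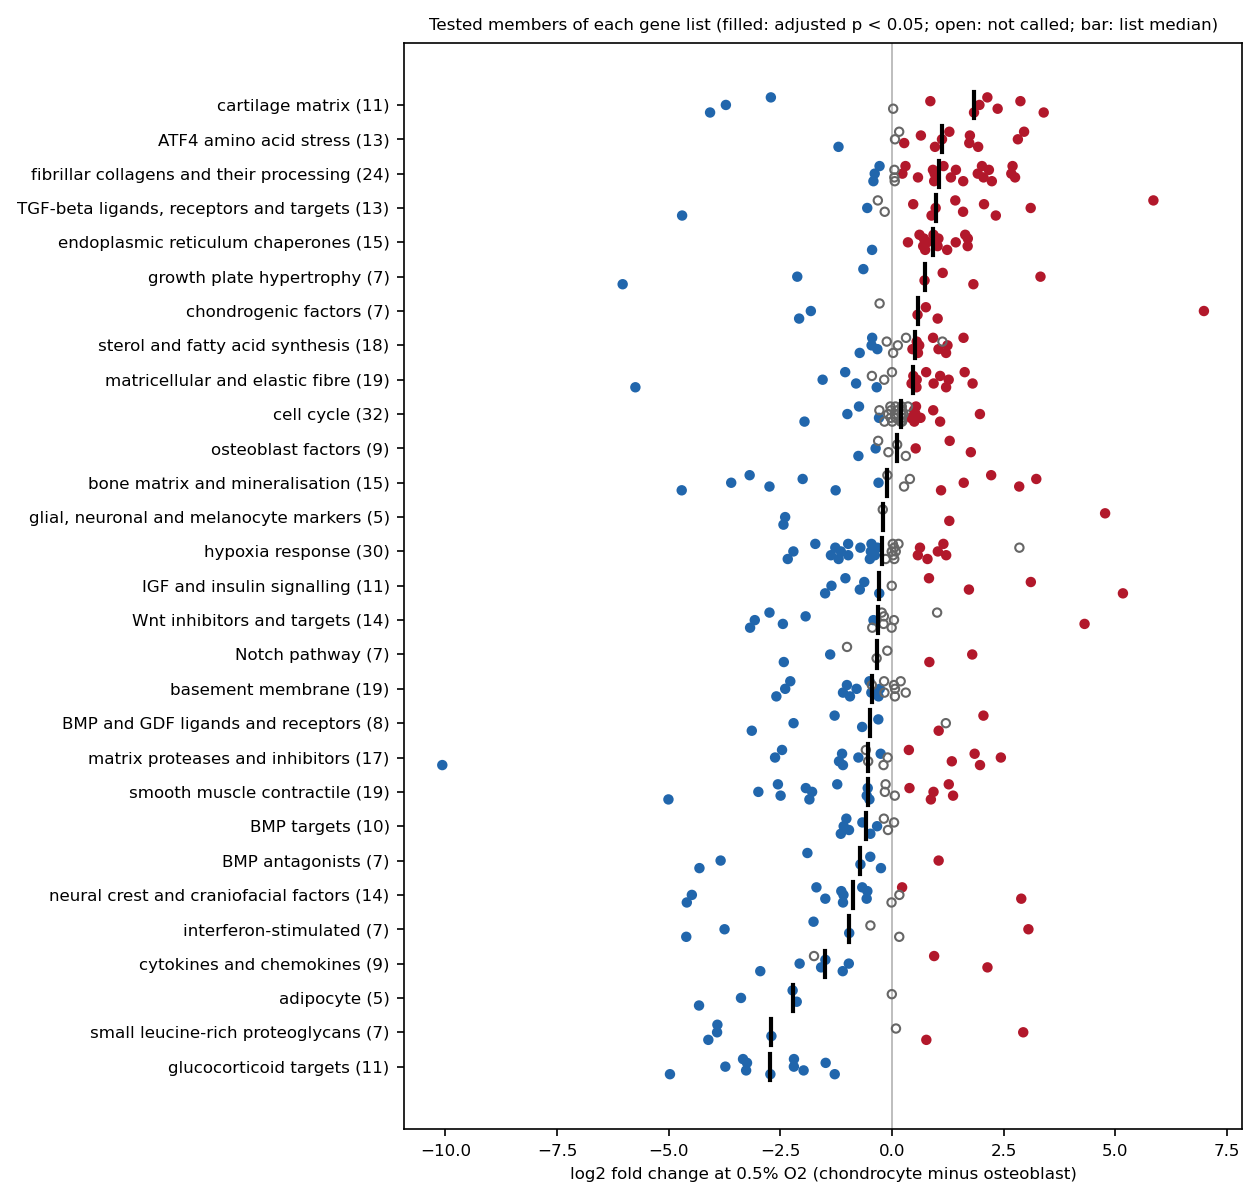
Log2 fold changes at 0.5% O2 (chondrocyte minus osteoblast) of the tested members of each gene list with at least 5 tested members, one point per gene, with the number tested in brackets (filled: adjusted p under 0.05, red higher, blue lower, open: not called, bar: median). Cartilage matrix, fibrillar collagen, TGF-beta and chaperone lists have medians on the right, from 0.93 to 1.83, and glucocorticoid targets and small leucine-rich proteoglycans have medians of -2.73 and -2.70.

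All 11 glucocorticoid targets on the list were lower in the chondrocyte cultures (median -2.73), although both media held the same dose of dexamethasone, a synthetic glucocorticoid that acts through a nuclear receptor. Their summed level was 2199 to 3514 CPM in the chondrocyte and 15830 to 18070 CPM in the osteoblast libraries. Mt1 and Mt2, described below as metallothioneins, are on this list and made up a large part of these sums. Their means were 4311 and 5090 CPM in the osteoblast and 446 and 534 CPM in the chondrocyte libraries. Fkbp5, a chaperone that dampens the receptor, was at 531, 381 and 391 CPM against 1026, 1059 and 1097 CPM (log2 fold change -1.28, SE 0.12, adjusted p = 1.48e-06). Tsc22d3, which encodes the leucine zipper protein GILZ, was at 617, 409.6 and 424 against 1822, 1922 and 2001 CPM (log2 fold change -1.98, SE 0.14, adjusted p = 3.10e-07). Errfi1, an inhibitor of the EGF receptor, had the largest difference of the list, at 33.96, 23.9 and 25.2 against 791, 844 and 984 CPM (31.4-fold lower, log2 fold change -4.97, SE 0.15, adjusted p = 2.67e-10). Zbtb16, a zinc finger repressor, was at 52.6, 17.7 and 17.4 CPM against 292, 309.7 and 289 CPM, and Cebpd at 41.3, 27.5 and 30.2 against 323, 440.1 and 558 CPM. No library of either group overlapped in any of these genes, and chondrocyte replicate 1 was the highest of its group in all of them. Without that library the 11 genes were again all lower, with a median of -2.96. Hypoxic proliferating cultures, whose medium had no dexamethasone listed, held 44.2, 42.4 and 43 CPM of Fkbp5 and 288, 282 and 300.1 CPM of Errfi1, so that the chondrocyte level lay above theirs in the former and below it in the latter.

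The metallothioneins, small proteins that bind zinc and copper, are encoded next to each other on chromosome 8 and were all lower in the chondrocyte cultures. Mt1 (chr8:94179082-94180327) was at 598, 392 and 348 CPM in the chondrocyte and 3774, 4404 and 4756 CPM in the osteoblast libraries (9.64-fold lower, log2 fold change -3.27, SE 0.205, adjusted p = 9.98e-07). Mt2 (chr8:94172664-94173568) was at 814, 415 and 374 CPM against 5165, 4859 and 5245 CPM (log2 fold change -3.25, SE 0.33, adjusted p = 0.000228). Mt3 (chr8:94152607-94154146) was at 0.4602, 0.0803 and 0.268 against 34.99, 46 and 55.97 CPM, and Mt4 (chr8:94137197-94139031) at 0.822, 0.362 and 0.302 against 27.4, 27.3 and 31.1 CPM. All 4 genes separated the groups without overlap, by log2 fold changes between -7.32 and -3.25. Without chondrocyte replicate 1 Mt3 was at -7.92 and Mt4 at -6.41 (against -5.81) on that scale. Because these neighbours differed together, the start of Mt1 is shown, from the RefSeq promoter table (GRCm38.p6, chr8:94179056-94179108, plus strand, capitals marking 2 of its 3 matches to the metal response element TGCACNC or TGCGCNC).
Mt1: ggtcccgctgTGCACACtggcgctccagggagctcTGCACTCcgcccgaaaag
The window from 250 bases before to 50 bases after the start, searched on both strands, held 3 matches in Mt1, 4 in Mt2 and 1 each in Mt3 and Mt4. Of 32851 promoters in the table, 25.7% held at least 1 match and 1.97% at least 3. A match describes letters and not a bound site.

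Most direct targets of bone morphogenetic protein (BMP) signalling were lower in the chondrocyte cultures at 0.5% O2. Of 10 genes, all tested, 0 were higher, 7 lower and 3 not called (median -0.58). At 21% O2, with the same BMP-2 doses, 1 was higher and 1 lower (median 0.094), and 8 and 1 without normoxic osteoblast replicate 4 (median 0.68). Id1, a helix-loop-helix inhibitor induced by SMAD1 and SMAD5, was at 43.4, 53.3 and 47.02 CPM in the chondrocyte and 96.1, 96.5 and 89 CPM in the osteoblast libraries (log2 fold change -0.97, SE 0.095, adjusted p = 2.07e-06). Smad9 was at 47.1, 45.95 and 46.1 CPM against 92.3, 100.3 and 104 CPM (log2 fold change -1.08, SE 0.083, adjusted p = 2.15e-07), and Hey1 at 48.1, 53.1 and 58.9 against 112, 117 and 128 CPM (log2 fold change -1.15, SE 0.096, adjusted p = 4.59e-07). The groups did not overlap in these genes, and Hey1 lost its call in the fit to all 28 libraries (adjusted p = 0.129). Id3, Smad7 and Atoh8 were not called.

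Secreted BMP antagonists, many of which are themselves induced by BMP, were lower in 6 of the 7 cases tested of 9, and 1 was higher (median -0.71). Grem1, gremlin, was at 137, 131 and 124 CPM against 2206, 1874 and 1558 CPM (14.3-fold lower, log2 fold change -3.84, SE 0.13, adjusted p = 2.67e-10), and Chrdl1, chordin-like 1, at 3.68, 2.45 and 1.95 against 53.5, 49.8 and 58.7 CPM (19.9-fold lower, log2 fold change -4.31, SE 0.19, adjusted p = 2.96e-09). Nog, noggin, was at 1.55, 1.65 and 1.44 against 6.44, 7.22 and 3.66 CPM. The exception was Fstl3, which binds activins, at 173, 163 and 158 against 73.3, 78.3 and 89.4 CPM. Of 14 ligands and receptors 8 were tested, and 2 were higher, 5 lower and 1 was not called (median -0.49). Endogenous Bmp2 was higher at 27.2, 34.3 and 31.4 against 9.24, 7.15 and 6.21 CPM and Bmp4 lower at 5.82, 2.65 and 3.42 against 19.7, 19.1 and 16.7 CPM, as was Bmp3, at 0.164, 0.121 and 0.335 against 2.21, 1.86 and 1.62 CPM.

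Most genes of TGF-beta signalling were higher in the chondrocyte cultures, the arm whose medium held TGF-beta3. Of 13 genes, all tested, 9 were higher, 2 lower and 2 not called (median 0.98). Pmepa1, a feedback inhibitor, was at 397, 408 and 415 CPM in the chondrocyte and 53.3, 49.5 and 39.7 CPM in the osteoblast libraries (8.59-fold, log2 fold change 3.103, SE 0.11, adjusted p = 3.24e-10), and Il11, a cytokine that TGF-beta induces, was at 22.8, 31.3 and 31.02 against 0.434, 0.421 and 0.6103 CPM (57.7-fold, log2 fold change 5.85, SE 0.22, adjusted p = 3.99e-10). Endogenous Tgfb3 was also higher, at 233, 247 and 254 against 86.95, 96.6 and 92.6 CPM. The 2 that were lower encode receptors. Tgfbr3, the co-receptor betaglycan, was at 14.96, 5.22 and 5.43 CPM against 244, 238 and 193 CPM (26-fold lower, log2 fold change -4.701, SE 0.504, adjusted p = 0.00109), and Tgfbr2 was lower by a log2 fold change of -0.56. Chondrocyte replicate 1 was the highest of its group in Tgfbr3, whose log2 fold change was -5.39 without it, and the groups did not overlap in these genes.

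**Figure D3:**
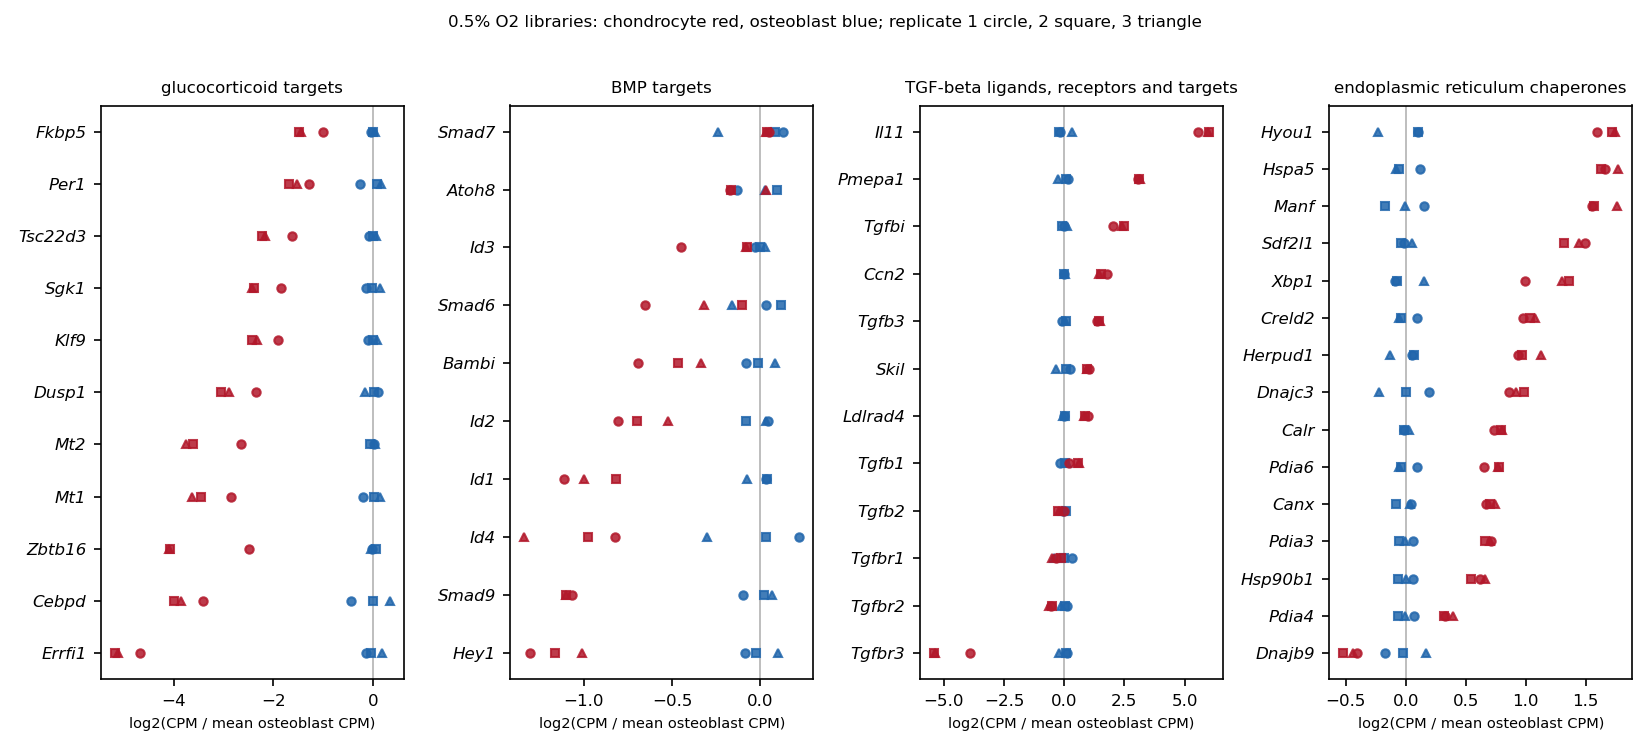
Levels of members of the glucocorticoid, BMP, TGF-beta and endoplasmic reticulum chaperone lists in the 6 libraries at 0.5% O2, as log2 of the CPM over the mean osteoblast CPM (red: chondrocyte, blue: osteoblast, marker shape: replicate). All 11 glucocorticoid targets lie to the left, 14 of 15 chaperones to the right, and the chondrocyte replicate 1 circle lies closest to the osteoblast libraries in glucocorticoid targets.

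Of 12 genes of insulin-like growth factor (IGF) signalling 11 were tested, and 4 were higher, 6 lower and 1 was not called (median -0.29). Igfbp5, an IGF-binding protein of the bone matrix, was at 47.04, 64.8 and 73.9 CPM against 6.99, 5.995 and 8.65 CPM (8.61-fold higher), Igfbp2 was at 0.4602, 0.442 and 0.872 against 0, 0.0351 and 0 CPM, and Igf1 was at 54.9, 60.98 and 57.6 against 20.2, 15.5 and 17.2 CPM, while the receptors Igf1r and Insr were lower (log2 fold changes -0.62 and -1.05). Among Wnt inhibitors and targets, 1 of 14 tested of 18 was higher, 6 lower and 7 not called (median -0.32). The 1 that was higher was Frzb, a Wnt antagonist of articular cartilage, at 16.01, 24.2 and 29.1 against 1.303, 0.771 and 1.44 CPM (19.8-fold, log2 fold change 4.31, SE 0.27, adjusted p = 1.36e-07). Dkk3 was lower at 76.7, 79.3 and 63.9 against 419, 409 and 375 CPM, and the feedback gene Nkd1 at 0.592, 0.482 and 0.4695 against 5.33, 3.65 and 5.21 CPM, whereas Axin2 and Lef1 were not called. Of 4 Hedgehog genes tested of 7, 1 was called, Gli2, which was lower (log2 fold change -2.15, SE 0.18, adjusted p = 2.67e-06, list median -0.26), while 3 were called lower without osteoblast replicate 3 and 2 with scaling by total counts alone. Of 7 Notch genes tested of 10, 2 were higher and 2 lower (median -0.35), with Hes1 at 29.03, 26.95 and 24.8 against 9.596, 8.27 and 5.53 CPM and Notch1 at 2.14, 2.61 and 4.86 against 22.2, 19.1 and 10.7 CPM.

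Chaperones of the endoplasmic reticulum, which fold and check secreted proteins such as collagen, were higher in the chondrocyte cultures in 14 of 15 cases, and 1 was lower (median 0.93). The summed level was 7090 to 7471 CPM in the chondrocyte and 3835 to 4102 CPM in the osteoblast libraries. Many of these genes carry the endoplasmic reticulum stress element in their promoters, to which ATF6 and NF-Y bind. Since they moved together, the matches of the letters CCAAT, any 9 bases and CCACG are shown for the members that hold one, with 10 bases on each side, 5′ to 3′ from the strand given, and with the fixed letters in capitals (RefSeq promoter table, GRCm38.p6).
Hspa5 (chr2:34772015-34772053, plus strand): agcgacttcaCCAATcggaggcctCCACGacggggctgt
Hsp90b1 (chr10:86705628-86705666, minus strand): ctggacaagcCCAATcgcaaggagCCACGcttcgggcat
Hsp90b1 (chr10:86705523-86705561, plus strand): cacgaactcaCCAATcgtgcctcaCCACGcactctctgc
Calr (chr8:84847065-84847103, plus strand): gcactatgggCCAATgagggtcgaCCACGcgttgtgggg
Canx (chr11:50325790-50325828, minus strand): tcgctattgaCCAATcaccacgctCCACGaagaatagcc
Creld2 (chr15:88819510-88819548, minus strand): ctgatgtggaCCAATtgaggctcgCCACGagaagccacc
Dnajc3 (chr14:118937817-118937855, plus strand): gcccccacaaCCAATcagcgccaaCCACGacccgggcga
Pdia6 (chr12:17266481-17266519, plus strand): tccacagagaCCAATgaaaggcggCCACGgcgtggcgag
Of the 15 members, 13 had a promoter in the table, and 7 of these held a match on either strand, against 39 of 32851 promoters of the same length (0.119%). The element is a description of these promoters, and its part in the difference was not tested.

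Among these chaperones Hspa5, the central chaperone BiP, was at 1360, 1326 and 1469 CPM in the chondrocyte and 468, 415 and 408 CPM in the osteoblast libraries (3.23-fold higher, log2 fold change 1.69, SE 0.091, adjusted p = 8.62e-09). Hyou1 and Manf, also in the lumen, were at 197, 216 and 219.7 against 70.3, 70.1 and 55.9 CPM and at 109, 111 and 126 against 41.4, 33.03 and 36.98 CPM. The 6 other members with the element were higher by smaller amounts, with log2 fold changes from 0.61 for Hsp90b1 to 1.04 for Creld2. The exception was Dnajb9, an Hspa5 co-chaperone and target of the XBP1 branch, which was lower at 56.8, 52.4 and 55.5 against 66.8, 74.2 and 84.4 CPM (log2 fold change -0.45, SE 0.098, adjusted p = 0.00154), while Xbp1 itself was higher at 158, 204 and 196 against 74.5, 75.4 and 88.4 CPM.

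Targets of ATF4, the factor of the amino acid response, were higher in 10 of 13 tested of 14, lower in 1 and not called in 2 (median 1.12). Nupr1, a stress-induced chromatin protein, was at 88.5, 101 and 101 CPM against 12.8, 13.01 and 11.7 CPM (7.75-fold higher, log2 fold change 2.96, SE 0.1, adjusted p = 2.63e-10). The cystine importer Slc7a11 was at 78.2, 115 and 104 against 17.9, 13.3 and 11.2 CPM, and the leucine importer Slc7a5 at 470.2, 501 and 492 against 145, 152 and 147 CPM. Asns, asparagine synthetase, and Trib3 were also higher (log2 fold changes 1.28 and 1.74), although Atf4 itself was not called. Ddit3 (CHOP) was listed at 0 in all 6 libraries, and whether its transcript was absent or only not counted was not tested. Of 18 sterol and fatty acid synthesis genes, 9 were higher, 4 lower (2 without chondrocyte replicate 3) and 5 not called (median 0.503). Fasn, fatty acid synthase, was at 218, 261 and 224 against 104, 106 and 95.7 CPM, and Acaca, the acetyl-CoA carboxylase that feeds it, at 66.7, 64.4 and 56.7 against 35.6, 29.6 and 26.5 CPM, whereas Scd1, a fatty acid desaturase, was lower at 126, 103 and 104 against 193, 171 and 188 CPM.

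Hypoxia response genes were unequal between arms kept at the same oxygen level. Of 30 tested, 6 were higher, 15 lower and 9 not called (median -0.24). The main glycolytic enzymes among them were not called. Ldha was at 2317, 2306 and 2245 CPM against 2068, 2104 and 2341 CPM (log2 fold change 0.082, SE 0.087, adjusted p = 0.447) and Pgk1 at 3114, 2873 and 3078 against 2864, 2975 and 3116 CPM, and the groups overlapped in both. With Eno1, Tpi1, Gpi1 and the kinase Pdk1, which were not called either, log2 fold changes ran from 0.016 to 0.14 with SE of 0.082 to 0.098. The transporter Slc2a1 was at 402, 312 and 326 CPM against 628, 753 and 929.7 CPM (log2 fold change -1.15, SE 0.14, adjusted p = 3.06e-05), hexokinase Hk2 at 209.5, 157 and 142 against 342, 344 and 323 CPM (log2 fold change -0.98, SE 0.13, adjusted p = 2.94e-05) and Pfkfb3 at 175, 117 and 121 against 304, 337 and 359 CPM (log2 fold change -1.27, SE 0.14, adjusted p = 1.58e-05). The glucose transporter Slc2a3 was lower and Pfkfb4 higher (log2 fold changes -1.72 and 0.62). Ddit4, an inhibitor of mTOR that glucocorticoids also induce, was at 84.2, 81.1 and 79.2 against 299, 389 and 448 CPM (4.63-fold lower).

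Adm, adrenomedullin, was at 133, 40.7 and 46.8 CPM against 311, 367 and 438 CPM, with chondrocyte replicate 1 far above the other 2 of its group, and its call (adjusted p = 0.0243) was lost when any 1 of the other 5 libraries was left out (adjusted p up to 0.0757) and with a replicate block (0.0704). Vegfa, the angiogenic growth factor that hypertrophic cartilage secretes, was higher at 469, 501 and 521 CPM against 295, 308 and 262 CPM (1.73-fold, log2 fold change 0.79, SE 0.089, adjusted p = 6.86e-06). Car12, a carbonic anhydrase, Ero1l, which drives disulfide formation, and Ak4, an adenylate kinase, were higher as well (log2 fold changes 1.21, 1.15 and 1.02). The reads of Gapdh, at 369, 33.1 and 526 against 83.4, 25.1 and 20.9 CPM, and of Aldoa may be shared with similar copies elsewhere in the genome, which was not tested, and neither gene was called.

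Most proliferation genes were not called. Of 32 cell cycle genes, all tested, 9 were higher, 4 lower and 19 not called (median 0.203). Mki67, the marker of cycling cells, was at 61.2, 72.99 and 71.6 CPM in the chondrocyte and 86.1, 68.3 and 97.2 CPM in the osteoblast libraries, with overlap (log2 fold change -0.28, SE 0.12, adjusted p = 0.0666). It was called lower under 3 of 15 alternatives (adjusted p down to 0.00952), with scaling by library size alone, without a filter and without osteoblast replicate 2. In addition, the mitotic cyclin Ccnb1 was at 26.4, 33.2 and 28.04 against 28.4, 28.3 and 32.7 CPM. Both arms lay below the hypoxic proliferating cultures, which held 326, 333 and 349.5 CPM of Mki67. The largest differences of the list lay in Rrm1, a subunit of ribonucleotide reductase, at 95.8, 81.5 and 80.6 against 336, 329 and 342 CPM (log2 fold change -1.96, SE 0.091, adjusted p = 2.33e-09), and in Cdc6, a licensing factor of replication, at 2.89, 3.66 and 2.68 against 0.948, 0.877 and 0.539 CPM.

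Neural crest and craniofacial factors were lower in 10 of 14 tested of 20, higher in 2 and not called in 2 (median -0.88). The count of higher calls was 1 with scaling by total counts alone and without chondrocyte replicate 2 or any 1 osteoblast library. Prrx1, a homeobox gene of facial mesenchyme, was at 676, 549 and 524 CPM against 1740, 1631 and 1578 CPM (log2 fold change -1.495, SE 0.11, adjusted p = 9.54e-08), Twist1 at 62.99, 72.2 and 63.4 against 129, 145 and 153 CPM, and Crabp1, a retinoic acid binding protein, at 0.329, 0.603 and 0.268 against 9.64, 8.31 and 8.65 CPM (22.4-fold lower). Pax3, an early crest factor, was at 0.0658, 0 and 0 against 0.671, 0.982 and 0.359 CPM. The aristaless-like factor Alx4 was higher at 3.45, 4.499 and 5.43 against 0.632, 0.912 and 0.251 CPM. The defining early crest genes Sox10 and Foxd3 were at 0 in all 6 libraries.

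Markers of other cell types that these cultures could hold ranged from abundant to absent. Of 20 smooth muscle contractile genes 19 were tested, and 5 were higher, 11 lower and 3 not called (median -0.55), and the summed levels overlapped at 6065 to 7007 and 6722 to 7150 CPM. Acta2, smooth muscle actin, was not called (it was called lower under 2 of 15 alternatives, with adjusted p down to 0.0261), Myh11, the smooth muscle myosin heavy chain, was at 0.4602, 0.161 and 0.302 against 1.501, 1.26 and 0.539 CPM (lower, adjusted p = 0.0119), Tagln was higher and Mylk lower, at 3.78, 4.74 and 3.56 against 148, 136 and 104 CPM (log2 fold change -5.01, SE 0.16, adjusted p = 3.85e-10), and the master regulator Myocd was at 0.362, 0.161 and 0.268 against 2.33, 2.14 and 2.05 CPM. Of 5 adipocyte genes tested of 13, 4 were lower and 1 was not called (median -2.23). Pparg, the adipogenic receptor, was at 8.65, 8.48 and 6.41 against 35.4, 37.8 and 37.3 CPM, Fabp4 at 1.81, 1.97 and 2.35 against 20.4, 20.3 and 23.5 CPM, and Plin4 at 12.8, 5.302 and 5.63 against 169, 180 and 130 CPM, whereas Adipoq and Cidec were at 0. Of 4 tendon genes tested of 5, Scx, scleraxis, was higher at 39.8, 55.03 and 43.9 against 6.95, 9.92 and 9.59 CPM, and Egr1, at 4.47, 4.901 and 5.37 against 130.2, 77.8 and 70.6 CPM, and Egr2 were lower (median -1.11), with Tnmd at 0. The count of lower calls was 1 without chondrocyte replicate 1 or 3 or osteoblast replicate 1 or 2, and 3 with scaling by total counts alone.

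Haematopoietic and vascular markers were close to absent, with Adgre1, Calcr, Tie1 and Emcn at 0. Summed levels were 5.59 to 7.81 against 1.15 to 2.81 CPM for 7 endothelial markers and 2.17 to 3.58 against 2.13 to 3.79 CPM for 9 macrophage and osteoclast markers. Of these, Pecam1 was higher, at 5.39, 6.35 and 7.78 against 0.908, 2.45 and 1.87 CPM, and Cd68 lower, at 0.493, 0.683 and 0.268 against 1.11, 1.86 and 1.87 CPM. Of 8 epithelial markers, summed at 18.8 to 35.5 and 89.4 to 104 CPM, Krt14 was higher at 6.81, 10.04 and 11.6 against 0.276, 0.912 and 0.323 CPM and Krt19 lower at 28.7, 8.64 and 14.7 against 88.8, 95.3 and 103 CPM, while Krt5, Krt18 and Cldn4 were at 0 and Krt8 and Cdh1 had at most 4 counts in either group. Of 9 glial, neuronal and melanocyte markers, summed at 83.8 to 115 and 44.1 to 52.7 CPM, 5 were tested and 2 were higher and 2 lower. Tubb3, a neuronal tubulin, was at 70.7, 101 and 87.4 against 2.804, 3.61 and 3.09 CPM (27.3-fold higher), S100b was at 0.0986, 0.0402 and 0.134 against 0.513, 0.701 and 0.359 CPM, and Tyr and Dct were at 0. Skeletal muscle markers reached at most 1.08 CPM in sum, with Myod1, Myog and Myf5 at 0. Of the 2 that were tested, Mylpf was called higher and Tnnt3 lower, and both calls were lost under other settings (adjusted p up to 0.186 and 0.133). The part of such cells in the differences was not tested.

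Of 7 interferon-stimulated genes tested of 16, 1 was higher and 4 lower (median -0.96), with Ifit3 at 0.0658, 0.0402 and 0 against 1.03, 1.05 and 0.826 CPM, Mx2 at 0.0329, 0.121 and 0 against 0.7503, 0.806 and 0.539 CPM and Ifit2 at 12.5, 9.92 and 9.86 against 43.2, 33.1 and 33.5 CPM. Of 9 cytokines and chemokines tested of 12, 2 were higher and 6 lower (median -1.49). Ccl7, a chemokine for monocytes, was at 0.2301, 0.0803 and 0 against 0.948, 0.947 and 0.646 CPM, and Lif, leukaemia inhibitory factor, at 3.58, 3.58 and 1.98 against 0.395, 1.09 and 0.574 CPM. Tnfrsf11b, osteoprotegerin, the decoy that blocks osteoclast formation, was higher at 92.9, 80.4 and 79.2 against 46.3, 42.3 and 43.4 CPM, and the macrophage factor Csf1 lower at 322, 330.2 and 306 against 685, 665 and 531 CPM. Tnfsf11, RANKL, was at 0.0986, 0.442 and 0.0335 against 1.11, 0.526 and 0.251 CPM and not called.

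Ranking all genes by the size of the difference named further genes. Klk4, a secreted serine protease known from enamel maturation (chr7:43881160-43885804), was at 148, 209 and 256 CPM in the chondrocyte libraries and at 0 in the 3 osteoblast libraries. Against a floor of 3 counts over the osteoblast group it was at least 5560-fold higher, and it was at 0 in the 3 hypoxic proliferating libraries as well. C1qtnf3, a secreted C1q family protein also called cartducin (chr15:10952332-10980150), was at 153, 262 and 287 CPM against 0.434, 0.1402 and 0.0718 CPM (1100-fold higher, log2 fold change 10.11, SE 0.49, adjusted p = 5.51e-06, and a log2 fold change of 11.04 without osteoblast replicate 1). Nes, nestin, an intermediate filament of progenitor cells (chr3:87971078-87980451), was at 100.4, 139.7 and 154 against 2.33, 2.24 and 2.15 CPM (log2 fold change 5.88, SE 0.18, adjusted p = 3.15e-10), and hypoxic proliferating cultures held 119, 123 and 124 CPM. The chondrocyte level of Nes was thus near that of the proliferating cells, and the osteoblast level far below it.

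Others that were higher included Srpx2, a sushi repeat protein of the extracellular space, at 34.7, 40.97 and 40.1 against 0.07898, 0.421 and 0.718 CPM, and Sp6, the tooth and skin factor epiprofin, at 67.7, 106 and 110.2 against 2.13, 1.51 and 1.04 CPM. Keratins joined them, with Krt16 at 36.9, 62.2 and 80.8 against 1.303, 1.33 and 2.41 CPM and Krt42 at 22.98, 42.7 and 62.8 against 0.158, 0.1402 and 0.108 CPM, although keratin genes are similar in sequence and their reads may be shared. Slc40a1, the iron exporter ferroportin, was at 17.1, 23.1 and 22.8 against 1.03, 0.631 and 0.431 CPM, and Serpinb2, the inhibitor PAI-2, at 15.3, 24.3 and 24.7 against 0.276, 1.23 and 0.539 CPM. Prss46, Mdga1 and Sema4f were higher by log2 fold changes of 5.47, 5.31 and 5.204.

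On the lower side, the largest differences included flavin-containing monooxygenases, enzymes that oxidise drugs and other foreign compounds and are encoded side by side on chromosome 1. Fmo1 (chr1:162829561-162866610) was at 0.658, 0.161 and 0.503 CPM in the chondrocyte and 112, 91.1 and 101 CPM in the osteoblast libraries (220-fold lower, log2 fold change -7.78, SE 0.22, adjusted p = 2.27e-10), and Fmo2 (chr1:162874317-162898726) at 0.921, 0.281 and 0.5701 against 98.8, 72.4 and 70.97 CPM. Every osteoblast library exceeded every chondrocyte library in both genes, and the hypoxic proliferating cultures held 0, 0.0737 and 0 CPM of Fmo1. Aldh1a7, an aldehyde dehydrogenase with a close paralogue that may share reads, was at 3.45, 2.77 and 3.79 against 316, 289 and 278 CPM (log2 fold change -6.45, SE 0.13, adjusted p = 6.86e-12). Sult1a1, a sulfotransferase, was at 0.921, 0.201 and 0.134 against 29.7, 29.4 and 31.8 CPM, and Acss3, an acyl-CoA synthetase, at 0.427, 0.402 and 0.201 against 50.03, 44.4 and 50.3 CPM.

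Penk, which encodes proenkephalin, was at 3.85, 4.74 and 5.27 CPM against 396, 305 and 341 CPM (log2 fold change -6.23, SE 0.15, adjusted p = 4.72e-11). Fam107a, an actin-associated protein, Eepd1 and the glycosyltransferase Galnt15 were lower by log2 fold changes of -6.72, -6.197 and -7.17. The genes with the largest difference in CPM on this side, which depends on transcript length, were Adamts1, Vim, Mt2, Mt1 and Spp1. Vim, vimentin, was at 3667, 2985 and 3078 against 7574, 7922 and 9210 CPM (log2 fold change -1.34, SE 0.11, adjusted p = 4.28e-07). Without chondrocyte replicate 1 all of the genes named from this ranking kept their direction and their call, and those that moved by over 1.5 times were Fam107a (-7.598), Eepd1 (-6.81) and Sult1a1 (-7.47, against -6.11), with Mt3 and Mt4 as given above.

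To see how much of this was particular to 0.5% O2, the same comparison was made at 21% O2, with 4 libraries in each group, and the difference between the oxygen levels was tested directly. At 21% O2, 8546 of 14319 genes (59.7%) were called, 4098 (28.6%) higher and 4448 (31.1%) lower in the chondrocyte cultures. With scaling by library size alone, 34.3% of the calls were higher, against 48.0% here. Without osteoblast replicate 4, 9736 genes were called. Across the 13703 genes tested at both oxygen levels, the log2 fold changes had a Pearson r of 0.615, given as a description. Of 7931 such genes called at 0.5% O2 and 8232 at 21% O2, 4570 were called at both in the same direction, 57.6% and 55.5% of the respective lists, and 773 in opposite directions. Without normoxic osteoblast replicate 4 the Pearson r over 13793 genes was 0.603, with 5113 genes called at both in the same direction and 941 in opposite directions. The interaction term, which is the hypoxic difference minus the normoxic difference, was called for 5750 of 15199 genes (37.8%), of which 2689 (17.7%) were positive and 3061 (20.1%) negative. Without normoxic osteoblast replicate 4 it was called for 6725 genes.

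Type I collagen and several other genes differed in the same direction at both oxygen levels. Among the genes ranked by size above, Srpx2, Sp6, Nes, Sema4f, C1qtnf3, Aldh1a7, Fam107a and Sult1a1 were called in the same direction at 21% O2. Their interaction terms were not called, with or without normoxic osteoblast replicate 4, whereas those of Il11, Slc40a1, Mmp13, Penk, Acss3 and Mt4 were. Mt4 was near 0 at 21% O2, with means of 0.107 CPM in the chondrocyte and 0.155 CPM in the osteoblast libraries. Col1a1 was at 38670, 43120, 40170 and 35670 CPM in normoxic chondrocyte replicates 1 to 4 and 5769, 5798, 5779 and 9467 CPM in normoxic osteoblast replicates 1 to 4 (log2 fold change 2.54, SE 0.18, adjusted p = 3.22e-06). Its interaction term was not called (-0.33, SE 0.23, adjusted p = 0.276), but was called without osteoblast replicate 4 (-0.53, SE 0.14, adjusted p = 0.0043). Of 24 fibrillar collagen and processing genes, 3 had a positive and 6 a negative interaction term, and 8 and 8 without that library. Ogn was lower at both levels of oxygen (log2 fold change -5.35 at 21% and -4.11 at 0.5%), as was Fmo1, at 6.97, 21.9, 17.5 and 27.8 against 181, 184, 174 and 112 CPM at 21% (log2 fold change -3.15, SE 0.38, adjusted p = 0.000141). Without that library the normoxic log2 fold changes were -5.49, SE 0.095, adjusted p = 5.54e-12, for Ogn and -3.301, SE 0.42, adjusted p = 0.000816, for Fmo1. The size of the difference still changed with oxygen in both, with interaction terms of 1.21, SE 0.23, adjusted p = 0.000801, for Ogn (1.36 without that library) and -4.65, SE 0.67, adjusted p = 0.000243, for Fmo1 (-4.49 without it).

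Ibsp, Alpl, Dmp1, Col10a1 and Acan separated the arms less at 0.5% than at 21% O2. Ibsp, already 9.37-fold apart at 0.5%, was at 779.5, 1953, 1305 and 748 CPM against 0.392, 0.484, 0.485 and 3.27 CPM at 21%, with an interaction term of -6.74, SE 0.81, adjusted p = 7.87e-05. Alpl, which overlapped at 0.5%, was at 296, 369, 287 and 129 CPM against 1.64, 2.58, 1.42 and 40.8 CPM at 21% (interaction -4.26, SE 1.38, adjusted p = 0.0322), a call that was lost without a filter (adjusted p = 0.0558) and in 8 of 14 fits with a library left out (up to 0.0743). Dmp1 was at 44.95, 49.9, 39.04 and 52.02 against 2.03, 1.05, 1.14 and 0.458 CPM (interaction -5.43, SE 0.51, adjusted p = 5.38e-06). The hypoxic osteoblast libraries thus held all 3 transcripts at levels that none of the 4 normoxic osteoblast libraries reached. Without normoxic osteoblast replicate 4 the terms were -8.12, SE 0.7, adjusted p = 9.13e-06 for Ibsp, -6.91, SE 0.59, adjusted p = 8.15e-06 for Alpl and -5.13, SE 0.46, adjusted p = 3.02e-06 for Dmp1. Col10a1 was at 226, 533, 459 and 315 CPM against 1.67, 1.86, 1.87 and 9.54 CPM at 21% (interaction -4.84, SE 0.78, adjusted p = 0.00065), and Acan at 1626, 2599, 2330 and 1457 against 91.4, 101, 96.9 and 378 CPM (interaction -2.74, SE 0.67, adjusted p = 0.00795), and without that library the terms were -5.9, SE 0.53, adjusted p = 1.12e-05 for Col10a1 and -3.51, SE 0.31, adjusted p = 3.76e-06 for Acan. For bone matrix and mineralisation genes, 2 of 16 interaction terms were positive and 10 negative, with or without osteoblast replicate 4. A negative term is not in itself a smaller separation. Omd, with log2 fold changes of -3.602 at 0.5% and -2.26 at 21% O2, Mepe, with -4.71 and 3.26 (3.87 without osteoblast replicate 4), and Spp1, with -2.002 and 1.02, had negative terms and were further apart at 0.5% O2.

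For Col2a1 and Sp7 the normoxic library that stood apart decided the call. Col2a1 was at 1057, 5214, 5992 and 2064 CPM in the normoxic chondrocyte and 36.3, 38.95, 44.6 and 791 CPM in the normoxic osteoblast libraries. Its interaction term was not called with all libraries (-2.02, SE 1.54, adjusted p = 0.328), and was called without osteoblast replicate 4 (-4.52, SE 0.805, adjusted p = 0.00133). Sp7, at 223, 189, 166 and 114 against 1.18, 0.686, 1.39 and 46.3 CPM, likewise went from -2.501, SE 1.497, adjusted p = 0.217, to -5.999, SE 0.44, adjusted p = 1.58e-06 without it. Sox9 did the same, from -1.14, SE 0.61, adjusted p = 0.17, to -1.87, SE 0.22, adjusted p = 1.80e-05. Over the cartilage matrix list 1 term was positive and 4 negative of 13, against 1 and 9 without that library, and over osteoblast factors 1 and 2 of 9, against 1 and 7. BMP targets had 0 positive and 2 negative terms of 10 with all libraries and 0 and 8 without it.

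Some genes reversed with oxygen. Spp1, lower in the hypoxic chondrocyte cultures, was higher in the normoxic ones at 1404, 2217, 2282 and 2569 CPM against 1027, 989.9, 1002 and 1109 CPM (interaction -3.05, SE 0.22, adjusted p = 9.55e-08). Runx2 was likewise higher at 21%, at 93.5, 90.6, 95.7 and 81.6 against 60.8, 70.7, 69.7 and 58.3 CPM (interaction -1.24, SE 0.13, adjusted p = 4.99e-06), and so was Chrdl1, at 132, 184, 150.2 and 193 against 42.6, 46.4, 41.5 and 38.5 CPM (interaction -6.28, SE 0.25, adjusted p = 9.64e-10). H19, an imprinted long noncoding RNA, was at 35.9, 19.96 and 24.8 CPM against 376, 314 and 363 CPM at 0.5% and at 683, 771, 884 and 821 CPM against 28.96, 27.7, 29.7 and 321 CPM at 21% O2 (interaction -6.66, SE 1.24, adjusted p = 0.00179). Fosl1, an AP-1 subunit, and Slc36a2, an amino acid transporter, had interaction terms of -6.098 and -6.46. Without normoxic osteoblast replicate 4 all 6 terms were called, at -3.07 for Spp1, -1.18 for Runx2, -6.23 for Chrdl1, -8.47 for H19, -6.88 for Fosl1 and -7.28 for Slc36a2.

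In the opposite direction, the largest interaction terms were in Fgf18, Adra2a, Slc4a11, Erc2 and Gpm6b. Fgf18, a growth factor for cartilage and cranial bone, was at 0.691, 0.495, 0.689 and 1.04 CPM in the normoxic chondrocyte and 19.1, 17.3, 16.96 and 3.497 CPM in the normoxic osteoblast libraries, but at 1.05, 0.844 and 1.17 and 0.474, 0.631 and 0.574 CPM at 0.5% O2 (interaction 5.14, SE 0.73, adjusted p = 0.000108, not called by limma-voom, where adjusted p = 0.0582). Adra2a, an adrenergic receptor, was at 41.6, 27.9, 31.3 and 31.2 against 398, 413, 392 and 148 CPM at 21% and at 42.6, 51.6 and 52.2 against 31.1, 30.8 and 25.1 CPM at 0.5% (interaction 4.11, SE 0.42, adjusted p = 1.58e-05). In each of the 5 genes every normoxic osteoblast library lay above every normoxic chondrocyte library, and all 5 terms were called without replicate 4, at 5.47 for Fgf18, 4.36 for Adra2a, 4.17 for Slc4a11, 4.301 for Erc2 and 4.15 for Gpm6b.

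The hypoxia response genes were mostly higher in the chondrocyte cultures at 21% O2. There 24 of 30 were higher and 1 lower (median 1.598), against 23 and 2 without osteoblast replicate 4. Of the 30 interaction terms, 25 were negative and 0 positive (median -2), the same counts as without that library. Ldha, not called at 0.5%, was at 739.9, 841, 816 and 1034 CPM against 169.9, 156, 163 and 318 CPM at 21% (interaction -2.01, SE 0.29, adjusted p = 0.000112), and Car12 at 69.2, 176, 183 and 66.5 against 0.143, 0.121, 0.277 and 0.229 CPM (interaction -8.07, SE 0.67, adjusted p = 3.81e-06). Hk2 reversed, being higher at 21%, at 61.5, 79.4, 77.7 and 79.2 against 13.8, 15.6, 15.1 and 12.2 CPM, and lower at 0.5% (interaction -3.38, SE 0.18, adjusted p = 6.46e-09). Without osteoblast replicate 4 the terms were -2.31 for Ldha, -8.14 for Car12 and -3.304 for Hk2. In the cell cycle list, likewise, 30 of 32 were higher and 1 lower at 21% O2 (median 2.53), and 27 had a negative interaction term, 31 without osteoblast replicate 4. Mki67 was at 136, 132, 143 and 88.5 CPM in the normoxic chondrocyte and 8.69, 7.26, 8.28 and 13.8 CPM in the normoxic osteoblast libraries (interaction -4.002, SE 0.303, adjusted p = 6.80e-07, and -4.23 without osteoblast replicate 4), so the hypoxic osteoblast cultures lay far above their normoxic counterpart.

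Most chaperones and sterol synthesis genes had positive interaction terms. Of 15 chaperones, 10 had a positive and 0 a negative interaction term, with and without normoxic osteoblast replicate 4 (medians 0.58 and 0.41). Hspa5 was at 1118, 982, 950.4 and 941 CPM against 772, 746, 742 and 1441 CPM at 21% (interaction 1.58, SE 0.27, adjusted p = 0.000407, and 1.29, SE 0.11, adjusted p = 5.03e-08, without that library). At 21% O2 itself 2 chaperones were higher and 1 lower, against 10 and 1 without it. Of 18 sterol and fatty acid genes, 14 had a positive term, 15 without it, and 0 a negative one. Sqle, squalene epoxidase, was lower at 21%, at 115, 136, 146 and 171 against 252, 239.5, 233 and 221 CPM, and higher at 0.5%, at 161, 135 and 148 against 87.2, 76.9 and 71.7 CPM (interaction 1.65, SE 0.16, adjusted p = 2.18e-06, and 1.69 without that library). Glucocorticoid targets were lower at both oxygen levels, all 11 at 21% O2 and 9 of 11 without osteoblast replicate 4, where Mt1 and Mt2 were not called. The gap was wider at 0.5% for 9 of 11, with negative interaction terms and a median of -1.303.

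**Figure D4:**
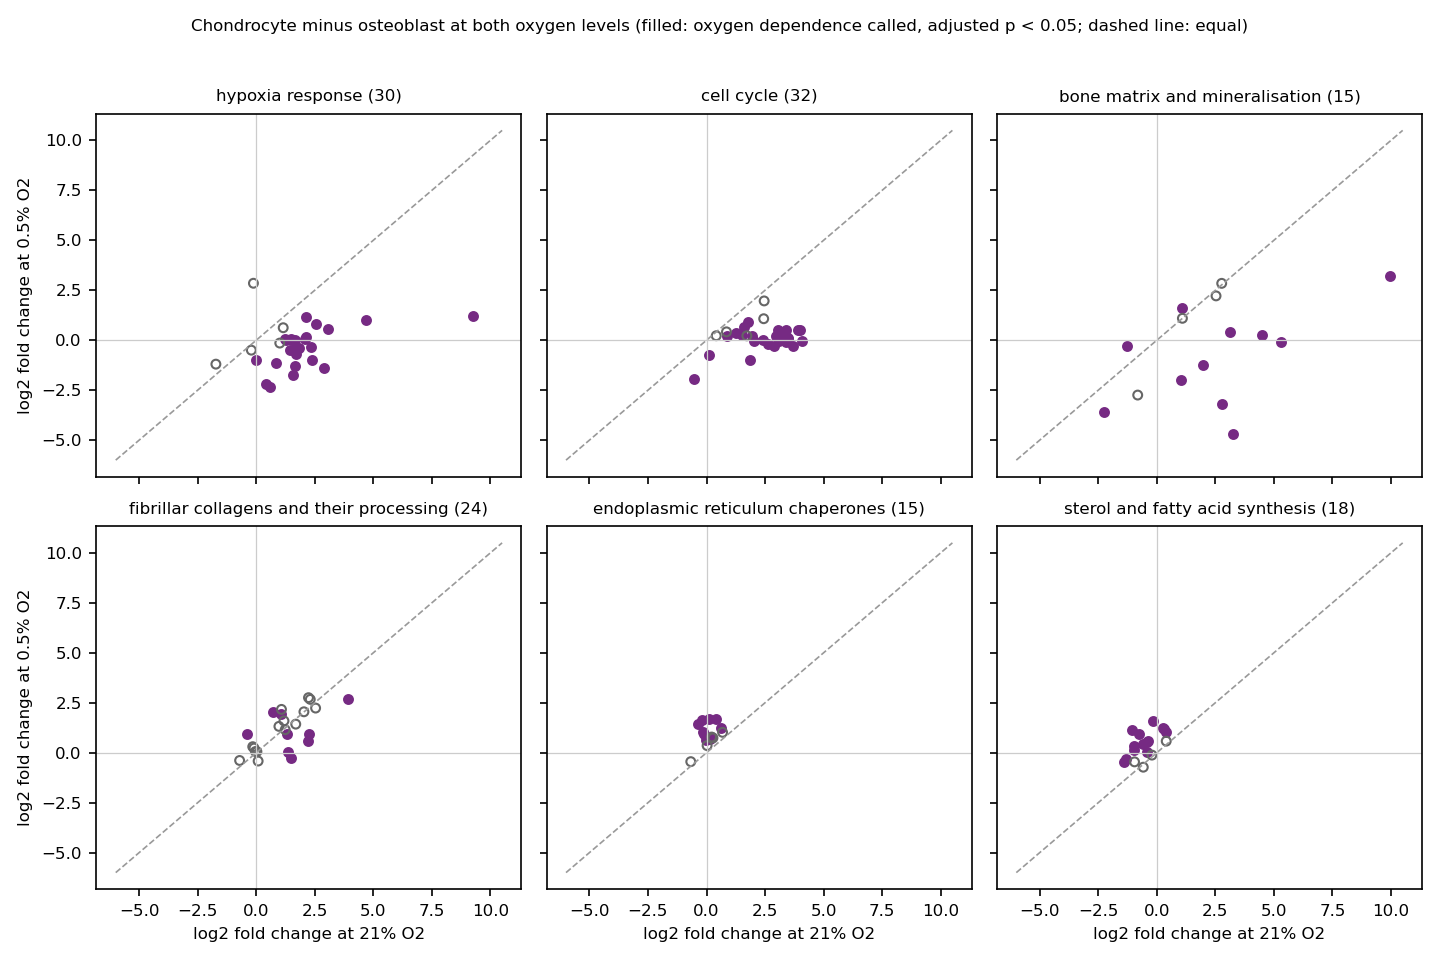
Chondrocyte minus osteoblast log2 fold change of each tested member of 6 lists at 21% O2 (x axis) and at 0.5% O2 (y axis), with all libraries (filled: interaction adjusted p under 0.05, open: not called, dashed line: equal differences). Most hypoxia response and cell cycle genes lie to the right of 0 on the x axis (24 of 30 and 30 of 32 called higher), while 14 of 18 sterol genes and 10 of 15 chaperones are filled and lie above the dashed line.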

How the data were processed

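Polyadenylated RNA of O9-1 cultures was sequenced after a stranded library preparation, per the labels' protocols. The values are gene counts of reads as deposited by the authors, made with HISAT2 2.0.5, StringTie 1.3.3b and featureCounts 1.5.0-p3 on mm10, per the submitters' processing notes, and whether counting used strand is not given in the sources used here. The table held 54429 gene identifiers, of which 54314 matched a symbol, and positions are from GENCODE M21 (GRCm38).

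Counts were filtered with filterByExpr, scaled by TMM and tested with edgeR 4.0.16 (robust quasi-likelihood, R 4.3.3, Benjamini-Hochberg adjustment over all genes tested). The procedure was tested on simulated data. For the hypoxic comparison, it recovered 46.3% of 67 genes changed 1.5-fold, 82.3% of 62 changed 2-fold and 93.8% of 64 changed 4-fold. For the normoxic comparison, the shares were 36.4% of 66, 80.6% of 67 and 95.4% of 65. False calls numbered 20 and 13. The simulation changed far fewer genes than were called here, so it does not give the error rate of the real calls. The fits used the 6 hypoxic, the 8 normoxic or all 14 libraries, and CPM come from a TMM scale over 17 libraries. The SE is the log2 fold change over the square root of F. DESeq2 1.42.0, limma 3.58.1 with voom, other scalings and filters, a replicate block and leaving out libraries were alternatives.

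Named genes are the 10 called genes with the largest fold change each way with a mean of at least 10 counts in each group, the 5 each way with the largest difference in CPM, the 3 each way with the highest CPM among those with a mean under 10 counts in the other group, the 5 largest interaction terms each way, the 2 largest changes of each list, and fixed markers. The first 3 rankings took only genes whose groups did not overlap, the interaction ranking those with a mean of at least 10 counts in each of the 4 groups, and all 4 passed over predicted genes, pseudogenes and mitochondrial and ribosomal protein genes. Other list members were named for their roles after their values were seen, and results of a few genes are not reported here. The members and lists were chosen with earlier results of these data known.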

Additional observations from a re-analysis of the deposited data

Results flagged for a closer look

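The chondrocyte minus osteoblast difference at 0.5% O2 and that at 21% O2 were compared by an interaction term, which edgeR called for 5750 genes. Negative terms, which mean that the hypoxic log2 fold change lay below the normoxic one, were found for some bone and cartilage genes and not for others. The term was -6.74 on the log2 scale for Ibsp, -5.43 for Dmp1, -4.84 for Col10a1, -4.26 for Alpl, -3.47 for Comp, -3.05 for Spp1, -2.74 for Acan and -1.24 for Runx2. Bglap had a term of -6.80 but is near 0 in the hypoxic libraries and may share reads with its copies. Further negative terms were -6.66 for H19, -6.46 for Slc36a2, -6.28 for Chrdl1, -6.10 for Fosl1, -4.002 for Mki67, -1.76 for Vegfa, -1.11 for Id1 and -0.84 for Fkbp5. Positive terms were found for Fgf18 (5.14), Adra2a (4.11), Slc4a11 (4.05), Erc2 (4.01), Gpm6b (3.94) and Acta2 (0.60). Without normoxic osteoblast replicate 4 all of these terms kept their sign and call. Those that moved by over 1.5 times were -9.79 for Bglap, -8.12 for Ibsp, -6.91 for Alpl, -5.9 for Col10a1, -3.51 for Acan, -8.47 for H19, -7.28 for Slc36a2 and -6.88 for Fosl1.

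Normoxic osteoblast replicate 4 was separated from the other 3 libraries of its group by a wide gap in 11 of the 40 groups of 4 libraries examined over 20 marker genes, and every such gap was in this library. For independent and normally distributed values, chance gives such a gap in about 1 of 20 groups. The marker genes were measured in the same libraries and are not independent, so the 11 gaps do not count as separate observations. It held more of the cartilage genes, with 791 CPM of Col2a1 (36.3 to 44.6 in the others), 378 of Acan (91.4 to 101), 9.54 of Col10a1 (1.67 to 1.87) and 197.5 of Sox9 (52.2 to 56.0). It also held more of the bone genes, with 9467 CPM of Col1a1 (5769 to 5798), 46.3 of Sp7 (0.686 to 1.39), 40.8 of Alpl (1.42 to 2.58), 3.27 of Ibsp (0.392 to 0.485) and 0.458 of Bglap (0 to 0.0346). Acta2 was at 4247 CPM (2891 to 3031), while Fkbp5 was lower at 367.5 CPM (559 to 575). The origin of the gap was not tested.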

How the results depend on the processing

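The count of genes called at 0.5% O2 stayed within 1.5 times of 8137 under each alternative tried. It was 7469 with at least 10 counts in every library, 8523 without a filter, 8090 by DESeq2, 8181 by limma-voom, 8429 in the fit to all 28 libraries and 7187 to 8023 with 1 library left out. The counts at 21% O2 (7640 to 9736 against 8546) and for the interaction (4871 to 6725 against 5750) stayed within 1.5 times as well. Both highest values came without normoxic osteoblast replicate 4. A replicate block gave 7859, 7698 and 4882 calls for the hypoxic, normoxic and interaction comparisons. Same-numbered hypoxic libraries did not deviate together (residual correlations -0.0463, 0.0198 and 0.0024 for numbers 1 to 3). Same-numbered normoxic libraries of both arms had correlations of -0.271 to -0.0453, and same-numbered libraries across oxygen levels -0.132 to 0.103. No pair of groups was above 0.1 at every number. With so few libraries per group, such correlations cannot show whether same-numbered samples shared a batch or a culture.

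Of 116 named genes called at 0.5% O2, 107 kept the call and its sign under every alternative in which they were tested, 9 lost the call under at least 1, and 0 changed sign. Besides those given in the text, Myh11 reached an adjusted p of 0.0515 with a library left out. Of 24 named interaction terms, Alpl lost its call without a filter (adjusted p = 0.0558) and in 8 fits with a library left out (up to 0.0743), Acta2 in 2 such fits (up to 0.0594), and Fgf18 (0.0582) and Comp (0.126) by limma-voom, while 0 changed sign. Dmp1, which was not called, changed sign without hypoxic chondrocyte replicate 1 (0.15) or osteoblast replicate 2 (0.20), with a range of -0.35 to 0.20, and the cause was not tested. With scaling by library size alone, 14 of 35 list medians moved further than with any 1 hypoxic library left out and 0 reversed, and 54.0% of the interaction calls were positive, against 46.8%. Depth limits the tests to genes that passed the filter, and a transcript at 0 is only below detection at these depths.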
